A study of Homo sapiens with 4 samples.

Results

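Interleukins are secreted messengers between blood cells, and the interleukin receptors are the membrane proteins that read them. They were taken here as every non-control probe whose gene symbol in the array files starts with IL followed by a number, with the chemokine IL8 left out. This gave 117 probes of 89 genes, out of 34127 probes and 27193 gene names on the array. By known role the genes comprised 43 ligands, 41 receptor chains, 4 antagonists or binding proteins and 1 enzyme. The enzyme is IL4I1, an amino acid oxidase that carries an interleukin symbol because its transcript is induced by IL4. The IL1 family, with its receptors and antagonists, made up 21 of the 89 genes and is described apart from the other 68. The symbols are those of the array design, and the current symbol differs for 9 genes: IL1F5 is now IL36RN, IL1F6 IL36A, IL1F7 IL37, IL1F8 IL36B, IL1F9 IL36G, IL28A IFNL2, IL28B IFNL3, IL29 IFNL1 and IL28RA IFNLR1.

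The cells were THP1, an established human monoblastic leukemia line that carries the fusion gene MLL-AF9 in all samples, and every value below is therefore from 1 line in culture. They were transfected with 30 nM of a miR-511-5p mimic or of the negative control #1 mimic and harvested on day 2, which asks how supply of this miRNA changes the transcripts of the cells. Each of 2 independent experiments gave 1 array per treatment, hence 4 single-dye Agilent arrays on 1 slide, with 2 per treatment. At 2 arrays per treatment the smallest p that an exact two-sided permutation test allows for 1 probe is 0.333. Between 64.8% and 69.3% of all probes per array were well above background, the call of the scanner software that a signal stands out from its surroundings, and no interleukin probe was saturated.

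Most interleukin receptors are built from several chains, of which 1 binds the ligand and another, shared with other receptors, carries the signal. The common gamma chain IL2RG, the beta chain CSF2RB and the chain IL6ST are such shared parts, and they act through JAK kinases and STAT factors. The IL1 family signals in another way. Its ligands bind receptors with a TIR domain, which act through MYD88 and the IRAK kinases, and IL1B and IL18 are made as precursors that caspase 1 cuts. Monocytes are a main source of IL1B, and the receptor antagonist IL1RN competes with it for the receptor.

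The transfected miRNA is shown because its seed, bases 2 to 8, printed in capitals, is the stretch that mainly pairs with target transcripts. The sequence is that of RefSeq, at chr10:17845122-17845142 on the plus strand of GRCh38.p14.
hsa-miR-511-5p: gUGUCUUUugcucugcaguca
The complement of this seed, AAAGACA, was searched in the interleukin probes, which are 60 bases long and cover only a short stretch of each transcript. On the probe strand it was found in 1 of 117 probes, that of IL1R2, and in 0.970% of all 34127 probes. On the other strand, where it reads TGTCTTT, it was found in 1 of the 117, that of IL22RA1, against 0.973% of all probes. A match in a probe is a description of these letters, and the transcripts outside the probes were not analysed here.

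THP1 cells carried the transcripts of many more interleukin receptors than interleukins. Of the 41 receptor genes, 27 (65.9%) had at least 1 probe well above background on all 4 arrays, 3 on some arrays and 11 on none. Of the 43 ligand genes, 11 (25.6%) were measured on all 4 arrays, 7 on some and 25 on none. Over all 89 genes these counts were 41, 10 and 38. By probe, 58 of the 117 (49.6%) were well above background on all 4 arrays, against 63.4% of all probes of the array, and 46 on no array. No interleukin probe was well above background on both arrays of 1 treatment and dark on both arrays of the other. A dark probe bounds the transcript and does not show that it is absent.

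**Figure D1:**
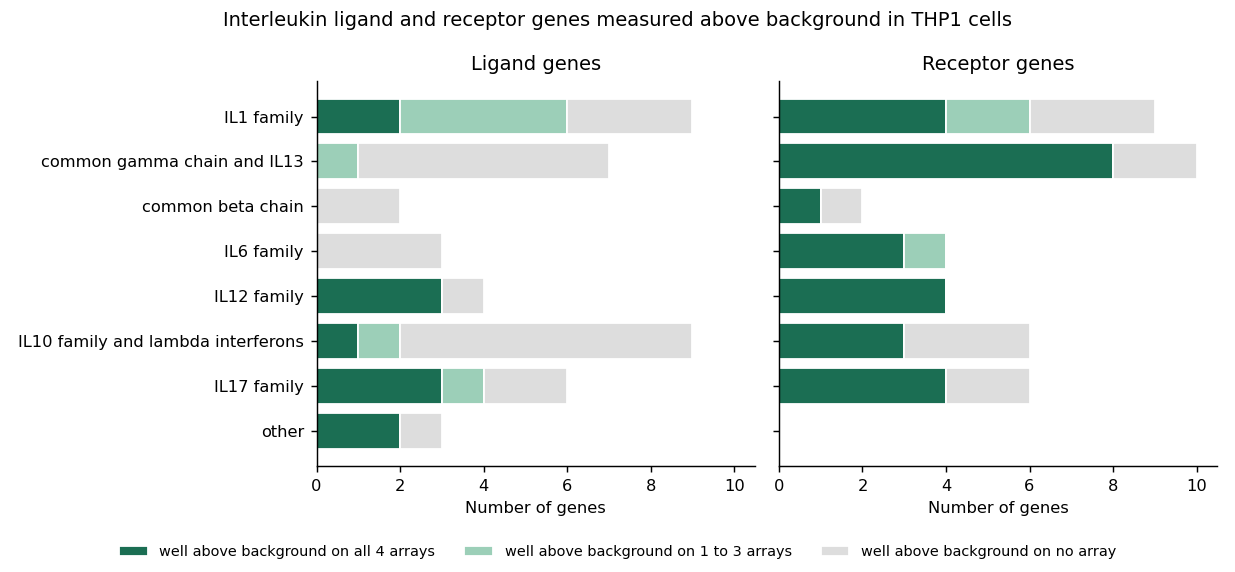
Number of ligand genes (left) and receptor genes (right) in each interleukin family, coloured by whether the best probe of the gene was well above background on all 4 arrays, on 1 to 3 arrays or on none. All 4 IL12 family receptor genes and 8 of 10 receptor genes of the common gamma chain and IL13 group were measured on all arrays. Of the ligand genes of that group, 0 of 7 were.

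The contrast between ligands and receptors was widest in the common gamma chain group, counted here together with IL13 and its receptor chains. The common gamma chain serves mainly lymphocytes. The receptor genes IL2RB, IL2RG, IL4R, IL7R, IL9R, IL13RA1, IL15RA and IL21R of this group were measured on all arrays, 8 of 10, and IL2RA and IL13RA2 on none. Of its 7 ligand genes, IL2, IL4, IL7, IL9, IL13 and IL15 were measured on no array and IL21 on 1. In the IL6 family, the receptor genes IL6R, IL6ST and IL11RA were measured on all arrays and IL31RA on 3, whereas the ligands IL6, IL11 and IL31 were measured on none. Of the pair that uses the common beta chain, IL3RA was measured on all arrays and IL5RA on none, and the ligands IL3 and IL5 were dark.

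The IL12 family was the best covered, with 4 of 4 receptor genes (IL12RB1, IL12RB2, IL23R and IL27RA) and 3 of 4 ligand genes (IL12A, IL23A and IL27) on all arrays. Its missing member was IL12B, the subunit that IL12 and IL23 share, so that a partner of IL12A and of IL23A was not measured. EBI3, the partner of IL27, was well above background on 1 array. In the IL17 family, the ligands IL17B, IL17C and IL17D and the receptors IL17RA, IL17RC, IL17RE and IL17REL were measured on all arrays, IL17A on 3, and IL17F, IL25, IL17RB and IL17RD on none. In the IL10 family with the lambda interferons, the receptor genes IL10RA, IL10RB and IL20RB were measured on all arrays. Of its 9 ligand genes, IL28A was measured on all arrays, IL29 on 1, and IL10, IL19, IL20, IL22, IL24, IL26 and IL28B on none, as were the receptors IL20RA, IL22RA1 and IL28RA and the soluble binding protein IL22RA2. IL28A and IL28B are near-identical copies, and their signals cannot be told apart with certainty. Of the ligands outside these families, IL16 and IL32 were measured on all arrays and IL34 on none.

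Set against known receptor assemblies, 17 of 26 receptor complexes had all their chains well above background on all 4 arrays. These included the receptors for IL1, IL36, IL3, IL4, IL6, IL7, IL9, IL10, IL11, IL12, IL15, IL21, IL23 and IL27. The other 9 had at least 1 chain measured on no array. For the receptor of IL2 this was IL2RA, for that of IL5 it was IL5RA, for that of IL18 it was IL18R1 and for that of IL33 it was IL1RL1. Each chain was counted by its best probe, and some of these were dim. The IL36 receptor chain IL1RL2 gave 3.57 to 3.95, and a second IL1R1 probe was well above background on only 2 arrays. Such counts are of transcripts in a culture as a whole, and say nothing of protein at the cell surface.

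Some silent genes rest on many spots. The probes of IL1A, IL1B, IL2, IL4, IL6, IL10, IL18, IL25 and IL34 were printed 10 times per array. For IL1B and IL18, 10 of 10 spots were well above background on every array. For IL6, IL10 and IL34, at most 1 of 10 spots was, and for IL4 at most 2. Over all interleukin probes dark on every array, the normalized log2 signal lay between 1.00 and 3.39. Among all probes of the array, interleukin or not, the dimmest one called well above background lay between 2.98 and 3.44, depending on the array.

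The markers of monocytic and myeloid cells fitted the label of the cell line: of 12 listed genes, 10 had a probe under that symbol, and each of the 10 was measured on all 4 arrays, among them CD33, CSF1R and SPI1. Of 7 T and NK cell markers, 3 (CD3D, CD8A and NKG7) were measured on all arrays and 2 (CD3G and GZMK) on none. All 7 epithelial and fibroblast markers were dark. The log2 of the summed signal per array was 16.4 to 16.5 for the myeloid list, 12.2 to 12.3 for the T and NK list and 4.49 to 4.85 for the epithelial and fibroblast list. The T and NK sum is mainly that of NKG7, at 12.18 to 12.30, while the other genes of that list gave at most 5.94.

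The share of interleukin probes that passed the test between the treatments was near that over all tested probes. In all, 65 probes of 46 genes could be tested, the condition being a signal well above background on each of the arrays of a treatment. Each of the 65 met this mark on at least 3 arrays. For 7 of them it was missed on 1 array, so they entered the test through 1 treatment alone. Through the miR-511 arrays came IL33 and IL17A, both higher with miR-511. Through the control arrays came the first IL32 probe, IL31RA and IL1F10, lower with miR-511, and IL1F7 and a dim IL16 probe, higher with it. The condition favours a difference toward the treatment of entry, so it is no support for one. Log2FC is the mean normalized log2 signal with miR-511 mimic minus that with control mimic. In limma's moderated test, 1 of the 65 passed the unadjusted threshold of 0.05 that the study used, that of IL1B, which was higher with miR-511. This is 1.54% of the interleukin probes, against a background of 2.20% of all 22638 tested probes. Over all tested probes, 1.27% passed as higher and 0.932% as lower with miR-511, and scaling each array to its 75th percentile turned this order, with 216 probes higher and 262 lower. No interleukin probe and 0% of all tested probes passed Benjamini-Hochberg adjustment over all tested probes. The lowest adjusted p in limma was 1.00 among the interleukin probes and 0.790 among all probes. In bulk RNA such as this, fewer cells with a transcript and less of it per cell cannot be told apart.

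Of the 65 probes, 36 were higher and 29 lower with miR-511. Their median log2FC was 0.02, beside 0.01 over all tested probes, and the median size regardless of direction was 0.11, beside 0.08. The log2FC stayed within 0.2 of 0 for 43 probes (66.2%), beside 82.2% of all tested probes. Both miR-511 arrays lay above both control arrays for 12 probes (18.5%, background 15.6%) and below them for 8 (12.3%, background 10.1%). In 39 of the 65 (60.0%) the difference had the same direction in both experiments, beside 51.0% of all tested probes. The median difference was 0.0002 in experiment 1 and 0.05 in experiment 2, beside 0.03 and -0.0006 over all tested probes.

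**Figure D2:**
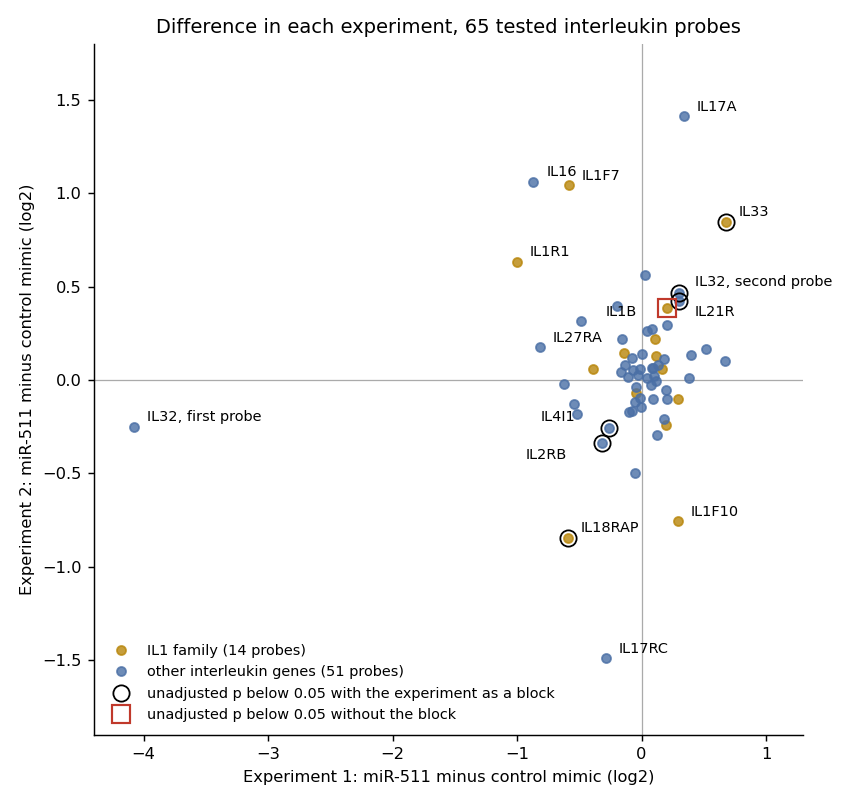
Each point is 1 of the 65 tested interleukin probes, placed by its log2 difference (miR-511 minus control mimic) in experiment 1 (x axis) and in experiment 2 (y axis). Most points lie near 0, IL1B is the point past the unadjusted threshold without the block, and the first IL32 probe stands apart in experiment 1 at -4.08.

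The 18 ligand probes had a median log2FC of 0.13 and a median size of 0.21, with 11 higher and 7 lower. The 43 receptor probes had a median of 0.002 and a median size of 0.10, with 22 higher and 21 lower. Of the 18 ligand probes, both miR-511 arrays lay above both controls for 7 and below for 1. Of the 43 receptor probes these numbers were 4 and 7. Over all tested probes the shares were 15.6% above and 10.1% below. Most probes that entered the test through 1 treatment alone are ligand probes. The difference between ligands and receptors was not tested.

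The experiment number links the arrays, and the interleukin probes differed more between the experiments than between the treatments. The median size of the difference between experiments was 0.17, beside 0.12 over all tested probes. With the experiment as a block in the limma fit, 6 interleukin probes (9.23%) passed the unadjusted threshold, against a background of 3.95% of all tested probes. They were those of IL21R, IL33 and the second IL32 probe, which were higher with miR-511, and those of IL2RB, IL4I1 and the second IL18RAP probe, which were lower. Of these, IL33 entered the test through the miR-511 arrays alone. IL1B was not among the 6, with an unadjusted p of 0.053 from limma.

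IL1B, the main fever-inducing cytokine of monocytes, had normalized log2 signals of 7.40 and 7.53 with miR-511 mimic in experiments 1 and 2 and of 7.20 and 7.15 with the control mimic. Both miR-511 arrays lay above both control arrays, and the difference was 0.20 in experiment 1 and 0.38 in experiment 2. The spots behind each of these values had an SD of 0.056 to 0.076 within the array, which covers spot noise alone and not the spread between cultures. The log2FC was 0.29 with a standard error of 0.10 and a 95% interval of 0.015 to 0.57, with an unadjusted p of 0.043 and an adjusted p of 1.00 from limma. The call held with the deposited table, with marked spots kept, and with a stricter filter on dim probes or none (unadjusted p of 0.039 to 0.047 from limma). It did not hold in the other settings that keep all 4 arrays. The unadjusted p from limma was 0.052 after 75th percentile scaling and 0.074 after normexp background correction, where the log2FC was 0.19. The offset of 50 in the normexp setting draws the log2FC of dim probes toward 0. A smaller value there is therefore partly built in, here and for the dim probes below. With any 1 array left out the log2FC was 0.22 to 0.36. The direction was the same in all of them. The probe lies at chr2:113587429-113587488 of hg19. IL1B is a gene that the study picked from these same arrays, so its direction here is not independent evidence. Apart from the arrays, the study reported higher IL1B with miR-511 by RT-qPCR in additional independent experiments. Those were measured on later days than day 2 of the arrays, in a course with repeated transfections, so the conditions differ.

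IL18, the other measured ligand that caspase 1 matures, gave 8.43 and 8.59 with miR-511 and 8.47 and 8.66 with control mimic. Its differences were -0.04 and -0.07, and its spots had an SD of 0.034 to 0.073 within an array. The groups overlapped, and the log2FC was -0.06 with a 95% interval of -0.39 to 0.28. IL1A, which shares the receptor of IL1B, was dark on all arrays, as were IL1F6 and IL1F8, ligands of the IL36 receptor.

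The remaining IL1 family ligands were near background. IL33, an alarm signal released by damaged cells, gave 4.84 and 4.16 with miR-511 and 4.16 and 3.31 with control mimic, the last of these not well above background. It was higher with miR-511 by 0.68 and 0.85 within the experiments, but the experiments themselves differed by 0.77. IL33 entered the test through the miR-511 arrays alone, which favours a rise. Its log2FC was 0.77 (standard error 0.39) with a 95% interval of -0.30 to 1.83, and an unadjusted p of 0.118 from limma and of 0.004 with the block. Normexp background correction gave 0.13. The value was 0.42 without the miR-511 array of experiment 1, and 1.19 and 0.34 without the control arrays of experiments 1 and 2.
IL1F7 encodes IL37, an anti-inflammatory member, and went opposite ways, by -0.58 and 1.04. IL1F10 did so too, by 0.29 and -0.76, and for each of these genes 1 miR-511 array was not well above background. IL1F9, a ligand of the IL36 receptor, was seen only with miR-511 mimic in experiment 2, at 4.94, where the other arrays gave 1.42 to 1.68.

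No IL1 family antagonist passed the test. The brighter probe of IL1RN, the IL1 receptor antagonist, gave 12.13 and 12.29 with miR-511 and 12.26 and 12.14 with control mimic. These differences, -0.14 and 0.15, cancel to a log2FC of 0.004 with a 95% interval of -0.30 to 0.31. The second IL1RN probe had a log2FC of 0.09. IL18BP, which binds and blocks IL18, had values of 5.83 to 6.05 and a log2FC of 0.11 (standard error 0.11). IL1F5, the antagonist of the IL36 receptor, was dark.

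**Figure D3:**
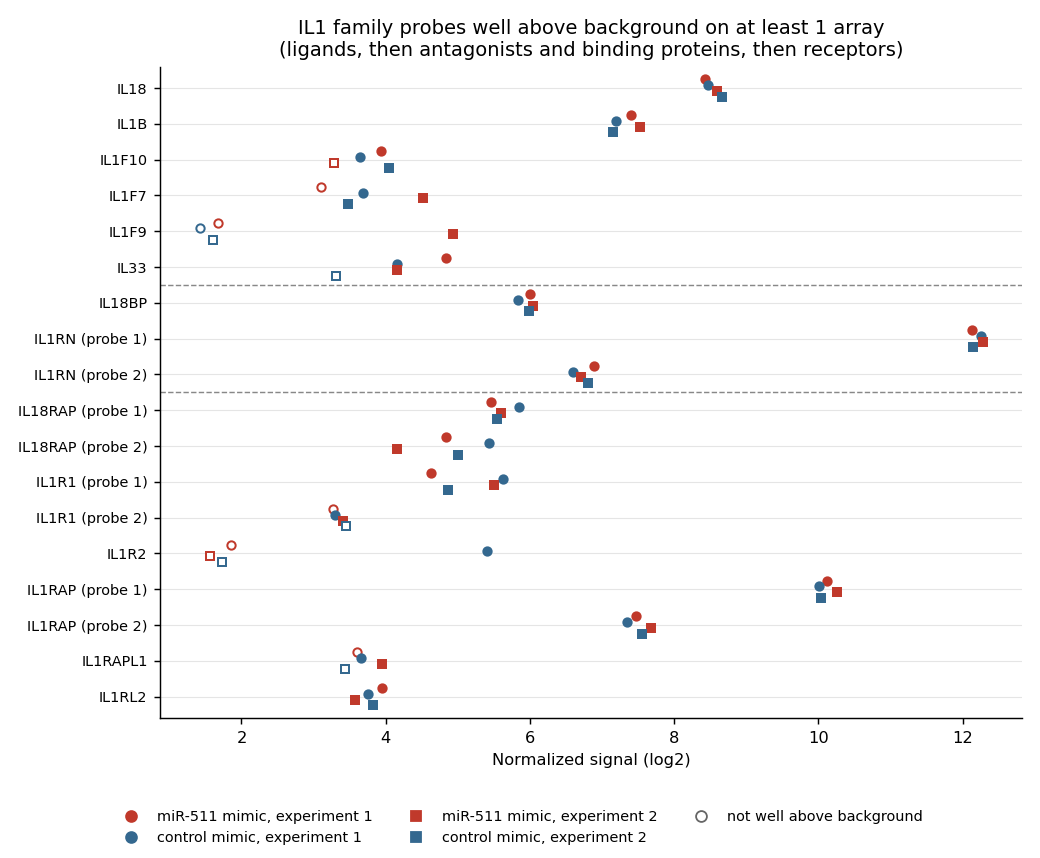
Normalized log2 signal (x axis) of each IL1 family probe that was well above background on at least 1 array, with 1 symbol per array and probes of a gene numbered by brightness. Filled symbols are well above background and open ones are not. The miR-511 arrays lie above the control arrays for IL1B, and single arrays stand apart for IL1F9 and IL1R2.

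Among the IL1 family receptors, the shared signalling chain IL1RAP gave 10.12 and 10.26 with miR-511 and 10.02 and 10.04 with control mimic at its brighter probe. Both miR-511 arrays were above both controls, with differences of 0.11 and 0.22, and the log2FC of 0.17 (standard error 0.10) did not pass the test. Its second probe had a log2FC of 0.12. IL1R1, the signalling receptor of IL1, gave 4.62 and 5.50 with miR-511 and 5.63 and 4.87 with control mimic. It was lower by 1.00 in experiment 1 and higher by 0.63 in experiment 2, so that its log2FC of -0.18 had a standard error of 0.41.
IL1RL2, the ligand-binding chain for IL36, had a log2FC of -0.02. IL1RAPL1, known mainly from neurons, was measured on 2 arrays and not tested, and IL1RAPL2, IL1RL1 and IL18R1 were dark on all arrays.

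IL18RAP, the accessory chain of the IL18 receptor, was lower with miR-511 at 1 of its probes. This dimmer probe, at chr2:103068885-103068944 of hg19, gave 4.84 and 4.16 with miR-511 and 5.43 and 5.00 with control mimic. Both miR-511 arrays lay below both controls, by 0.59 and 0.84 within the experiments. The log2FC was -0.72 with a standard error of 0.29 and a 95% interval of -1.52 to 0.08, and an unadjusted p of 0.068 from limma, or of 0.007 with the block. After normexp background correction the log2FC was -0.22, and without the miR-511 array of experiment 2 it was -0.38. The brighter probe, at chr2:103068695-103068754, gave 5.46 and 5.60 with miR-511 and 5.85 and 5.54 with control mimic, and its log2FC was -0.17 (standard error 0.15). Since IL18R1 was dark, the chain that binds IL18 was not measured beside it.

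IL1R2, a decoy receptor that binds IL1 without signalling, was seen on 1 array. The control mimic array of experiment 1 gave 5.41, while the other arrays gave 1.57 to 1.86 and were dark. The probe is shown because it is the interleukin probe that holds the seed complement, in capitals. It lies at chr2:102632505-102636150 on the plus strand of hg19, and as its ends are 3646 bases apart for 60 bases of probe, it spans a splice junction.
IL1R2: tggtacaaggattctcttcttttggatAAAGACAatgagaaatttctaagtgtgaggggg
In experiment 2 the control and the miR-511 array gave 1.73 and 1.57, both dark. A value on 1 of 4 arrays allows no statement on the treatment.

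Over the 14 tested IL1 family probes of 11 genes, 8 were higher and 6 lower with miR-511. Their median log2FC was 0.05 and their median size 0.17, beside 0.02 and 0.10 for the 51 probes of the other families. In 7 of the 14 both experiments went the same way.

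The genes that act downstream of the IL1 receptors or in IL1 maturation gave no call. Of 25 genes of IL1 receptor signalling and IL1 maturation, 23 could be tested, 8 were higher and 15 lower. Their median log2FC was -0.03, and 0 passed limma's unadjusted threshold with or without the block. Over all tested probes 12157 were higher and 10481 lower, and 2.20% passed without and 3.95% with the block. At such shares, 0 of 23 does not set these genes apart. MYD88, the adaptor of the receptors, had a log2FC of -0.07 (standard error 0.11), CASP1, the protease that cuts the IL1B precursor, of -0.05 (standard error 0.13), and NLRP3, the sensor that activates it, of 0.05 (standard error 0.10). AIM2 and CARD18 were dark on all arrays.

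Outside the IL1 family, the largest difference of any ligand was that of IL32, a cytokine made by lymphocytes and monocytes. It has no mouse counterpart and many splice forms. Its probes are shown because they had log2FC of opposite sign, and both lie on the plus strand of hg19, the first at chr16:3119014-3119073 and the second at chr16:3119308-3119367.
IL32, first probe: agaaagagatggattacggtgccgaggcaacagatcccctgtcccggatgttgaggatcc
IL32, second probe: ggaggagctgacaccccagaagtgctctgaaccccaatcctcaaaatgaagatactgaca
The first gave 3.79 and 4.87 with miR-511 and 7.87 and 5.12 with control mimic, so that the control array of experiment 1 stood far above the other 3. Its log2FC was -2.16 (standard error 1.03) with a 95% interval of -4.98 to 0.65 and an unadjusted p of 0.101 from limma. It was -0.79 without that array, -3.54 without the control array of experiment 2 and -0.81 after normexp background correction. The second probe gave 5.12 and 4.92 with miR-511 and 4.82 and 4.46 with control mimic, higher in both experiments by 0.30 and 0.47. Its log2FC was 0.38 with a standard error of 0.17 and a 95% interval of -0.07 to 0.84, and an unadjusted p of 0.081 from limma, or of 0.025 with the block. It was 0.13 after normexp background correction and 0.20 without the control array of experiment 2. On the control array of experiment 1, where the first probe was high, the second was at 4.82, between the other values. The first probe was chosen for description after its values were seen.

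**Figure D4:**
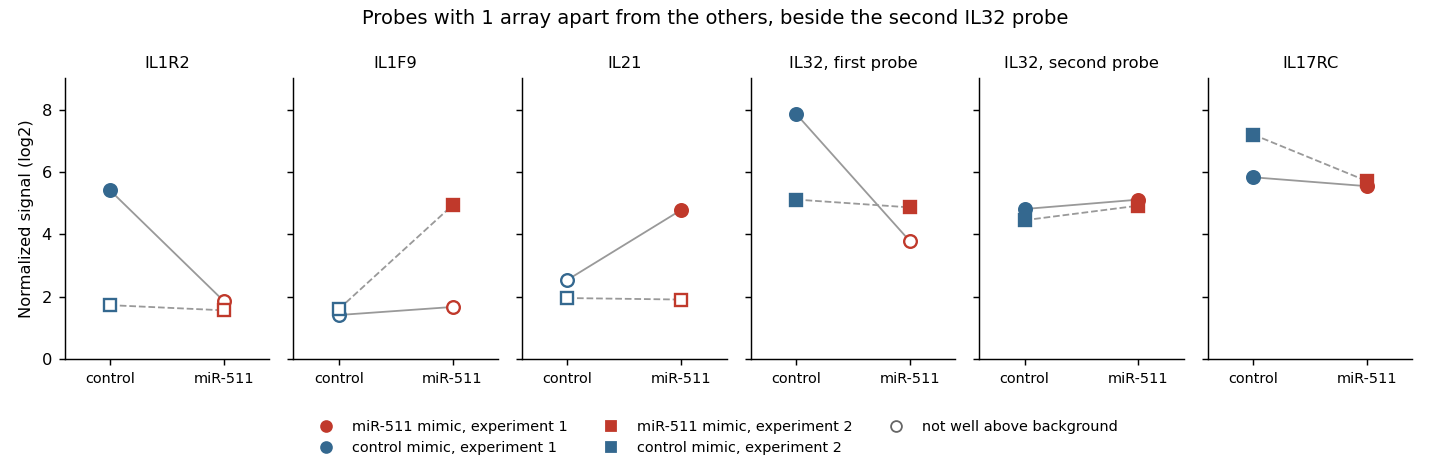
Normalized log2 signal (y axis) of 6 probes with control mimic (left) and miR-511 mimic (right), solid lines joining the arrays of experiment 1 and dashed lines those of experiment 2, with open symbols for arrays not well above background. In IL1R2, IL1F9, IL21 and the first IL32 probe 1 array stands apart, and in IL17RC the control array of experiment 2 does, at 7.20. The panels were chosen after the values were seen.

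IL16, a chemoattractant for CD4+ cells, was higher with miR-511 at both of its brighter probes without passing the test. The brightest gave 8.23 and 7.93 with miR-511 and 7.71 and 7.76 with control mimic, a log2FC of 0.34 (standard error 0.14, unadjusted p = 0.065 from limma). The next had a log2FC of 0.16, and the groups did not overlap at either. At another, dimmer probe the experiments gave -0.87 and 1.06. IL28A, a lambda interferon, gave 5.35 and 5.23 with miR-511 and 4.95 and 5.10 with control mimic. Its groups did not overlap, and the log2FC was 0.27 (standard error 0.11, unadjusted p = 0.068 from limma).

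The log2FC of the IL12 family ligands lay between -0.05 and 0.05. IL23A, the IL23-specific subunit, lay between 10.01 and 10.33 with differences of 0.18 and -0.21. IL12A differed more between the experiments than between the treatments, at 4.50 and 4.29 in experiment 1 and 5.20 and 5.30 in experiment 2. IL27 lay between 5.11 and 5.23, with a log2FC of -0.05 (standard error 0.10).

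In the IL17 family, IL17A, the lymphocyte cytokine that induces neutrophil-attracting signals, was higher with miR-511 by 0.34 and 1.41. Its control array of experiment 2, at 2.43, was not well above background, and its log2FC of 0.88 had a standard error of 0.47. IL17B was higher by 0.38 and 0.01, IL17C differed by -0.16 and 0.05 and IL17D by -0.11 and 0.02. IL21, a cytokine of T helper cells, was seen only with miR-511 mimic in experiment 1, at 4.78, while the other arrays gave 1.91 to 2.55. IL29 was seen only on the control array of experiment 1, at 3.35. IL21 and IL29 were not tested.

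**Figure D5:**
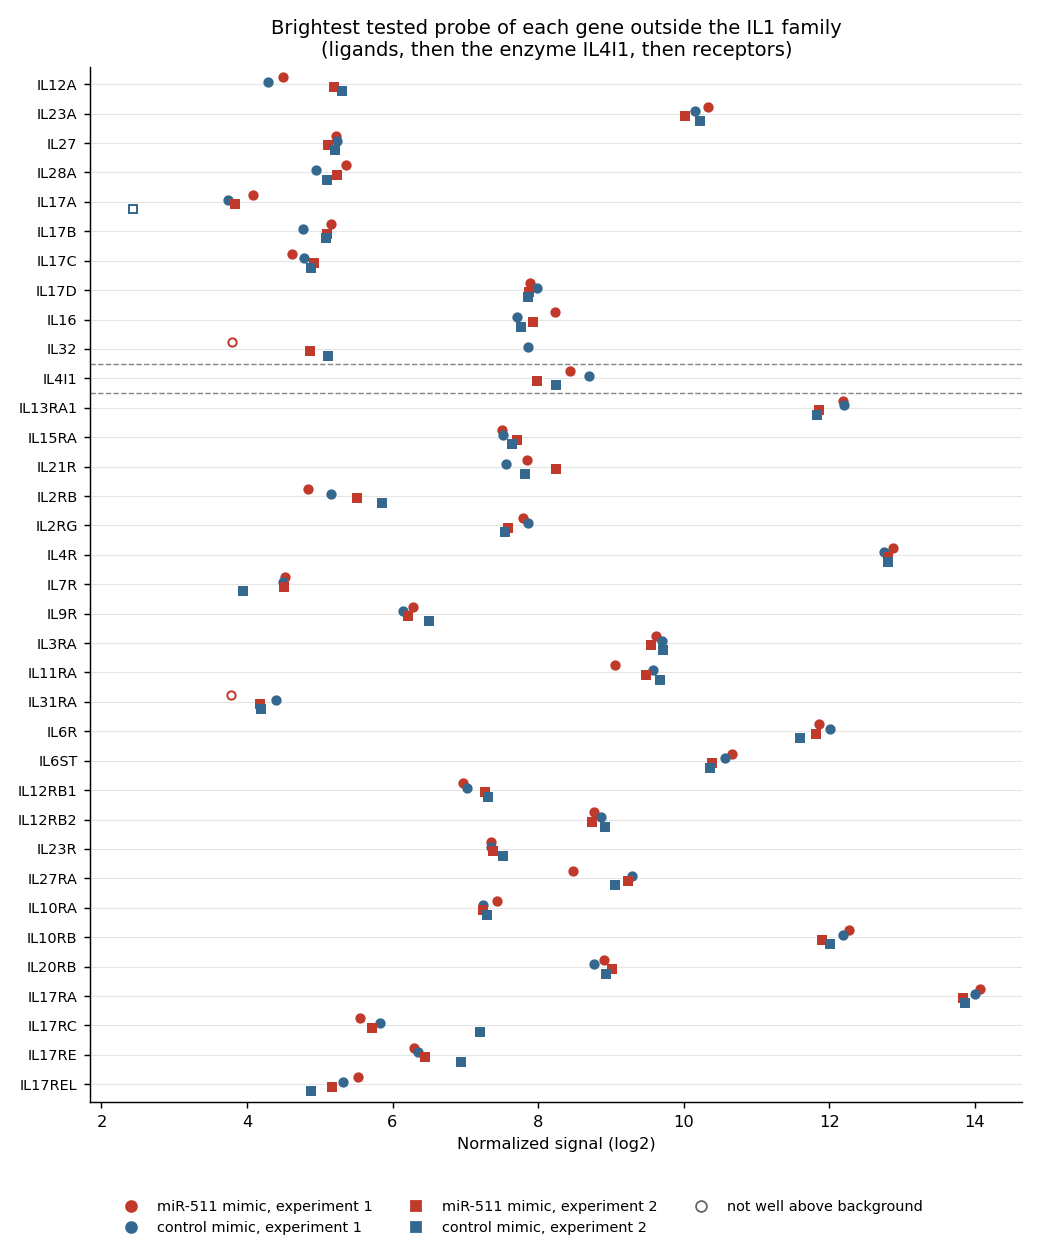
Normalized log2 signal (x axis) of the brightest tested probe of each gene outside the IL1 family, with 1 symbol per array, filled where well above background. For most genes the 4 arrays lie close together, and the treatments overlap. Levels of different genes are from different probes and cannot be compared.

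Among the receptors outside the IL1 family, IL17RC, a chain of the receptor for IL17A and IL17F, had the largest difference. Its probe lies at chr3:9974732-9974791 on the plus strand of hg19 and is shown as that of the lowest log2FC among probes measured on every array.
IL17RC: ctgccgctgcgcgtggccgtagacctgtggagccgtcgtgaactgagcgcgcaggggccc
It gave 5.55 and 5.71 with miR-511 and 5.83 and 7.20 with control mimic. The groups did not overlap, but the difference was -0.29 in experiment 1 and -1.49 in experiment 2, where the control array was high. Its log2FC was -0.89 (standard error 0.49), with a 95% interval of -2.22 to 0.45 and an unadjusted p of 0.14 from limma. It was -0.20 without the control array of experiment 2, -1.57 without that of experiment 1 and -0.46 after normexp background correction. Its partner IL17RA, measured at 3 probes with values of 13.45 to 14.07, had log2FC between 0.02 and 0.07. IL17RE, the partner for IL17C, differed by -0.05 and -0.50, again with its highest value on the control array of experiment 2. IL17REL differed by 0.21 and 0.29.

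Of the common gamma chain group, IL21R, which receives IL21, gave 7.85 and 8.24 with miR-511 and 7.55 and 7.82 with control mimic. Both miR-511 arrays lay above both controls, by 0.30 and 0.42 within the experiments. The log2FC at chr16:27461324-27461383 was 0.36 with a standard error of 0.19 and a 95% interval of -0.15 to 0.87, and an unadjusted p of 0.124 from limma, or of 0.025 with the block. It was 0.56 and 0.16 without the miR-511 arrays of experiments 1 and 2, and 0.23 without the control array of experiment 1.
IL2RB, shared by the IL2 and IL15 receptors, gave 4.84 and 5.51 with miR-511 and 5.16 and 5.85 with control mimic. It was lower by 0.32 and 0.34 within the experiments, while the experiments differed by 0.69. Its log2FC was -0.33 (standard error 0.35) with a 95% interval of -1.28 to 0.63, and an unadjusted p of 0.397 from limma, or of 0.024 with the block. It was -0.10 after normexp background correction and lay between -0.68 and 0.019 with any 1 array left out, above 0 without the miR-511 array of experiment 1 or the control array of experiment 2.

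IL15RA, the chain that binds IL15, showed how probes of 1 gene can differ. Its dimmest probe, at chr10:6008193-6008252, gave 4.87 and 5.13 with miR-511 and 4.19 and 5.03 with control mimic. The log2FC was 0.39 with a standard error of 0.32 and a 95% interval of -0.48 to 1.25, and an unadjusted p of 0.287 from limma. Normexp background correction gave 0.10. The value was 0.25 without the miR-511 array of experiment 2, and -0.03 and 0.80 without the control arrays of experiments 1 and 2. The brighter IL15RA probes had log2FC of 0.02 and 0.07. IL13RA1, a chain of the IL13 receptor, likewise had 0.002 at its brighter probe and -0.34 (standard error 0.16) at the other. Of 11 genes with several tested probes, 4 had probes on both sides of 0: IL13RA1, IL32, IL4R and IL6ST.

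None of the other chains of the group passed the test. The common gamma chain IL2RG had a log2FC of -0.01 at its brighter probe, with values of 7.54 to 7.86. IL4R, with values of 12.76 to 12.88 at its brighter probe, differed by 0.12 and -0.01. IL7R differed by 0.03 and 0.56, with both miR-511 arrays above both controls, and IL9R by 0.13 and -0.29. IL3RA, the chain that binds IL3 and a common antigen of myeloid leukemia cells, gave 9.63 and 9.55 with miR-511 and 9.70 and 9.72 with control mimic. These groups did not overlap, and the log2FC was -0.12 with a 95% interval of -0.37 to 0.13.

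In the IL6 family, IL11RA, the chain that binds IL11, gave 9.05 and 9.49 with miR-511 and 9.57 and 9.67 with control mimic. Both miR-511 arrays lay below both controls, by 0.52 and 0.18. The log2FC at chr9:34660510-34660569 was -0.35 with a standard error of 0.18, a 95% interval of -0.84 to 0.14 and an unadjusted p of 0.117 from limma. Without the miR-511 arrays of experiments 1 and 2 it was -0.13 and -0.57. The IL6 receptor chain IL6R differed by -0.15 and 0.22, and IL31RA, not well above background on the miR-511 array of experiment 1, by -0.62 and -0.02. IL6ST, the chain that carries the signal of IL6 and IL11, was measured by 7 probes, each of them on all arrays, with log2FC between -0.03 and 0.18.

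None of the IL12 and IL10 family receptors passed the test. IL12RB2, a signalling chain of the IL12 receptor, gave 8.77 and 8.75 with miR-511 and 8.87 and 8.91 with control mimic. The groups did not overlap, and the log2FC of -0.14 (standard error 0.09) did not pass the test. IL12RB1 had a log2FC of -0.04 and IL23R of -0.07. IL27RA was lower by 0.81 in experiment 1, at 8.48 against 9.29, and higher by 0.17 in experiment 2. IL10RB, the shared chain of the IL10 family, had a log2FC of -0.01, IL10RA of 0.07 and IL20RB of 0.11. The enzyme IL4I1 gave 8.44 and 7.99 with miR-511 and 8.69 and 8.24 with control mimic, lower by 0.26 in each experiment. With the experiments 0.45 apart, its log2FC was -0.26 (standard error 0.24) with a 95% interval of -0.91 to 0.39, and an unadjusted p of 0.337 from limma, or of 0.045 with the block. It was -0.03 without the control array of experiment 1 or the miR-511 array of experiment 2, and -0.48 without either of the others.

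The receptor chains and signalling genes without an interleukin symbol were listed apart. Of 15 receptor chains and ligands of interleukin complexes, among them the common beta chain CSF2RB, 10 could be tested. Of these, 9 were higher and 1 lower, with a median log2FC of 0.11, and 0 passed limma's unadjusted threshold with or without the block. Over all tested probes 12157 were higher and 10481 lower, and 2.20% passed without and 3.95% with the block. CSF2RB itself had a log2FC of 0.16 (standard error 0.19). OSMR, the partner of IL31RA, was dark. Of 17 JAK-STAT genes, 16 could be tested, with 9 higher and 7 lower and a median of 0.004. None passed without the block, and 1 of the 16 passed with it, where 3.95% of all tested probes did. A count of 1 does not set this list apart from that share. The gene was SOCS3, an inhibitor of IL6 signalling, higher by 0.27 and 0.30 in the experiments (log2FC 0.28, standard error 0.16, unadjusted p = 0.15 from limma, or 0.036 with the block).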

How the data were processed

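THP1 cells were profiled on 4 single-dye Agilent arrays, 2 per treatment. The authors deposited, per the file headers, the scanner intensity of each spot made with Feature Extraction 10.7.3.1 and annotated on hg19, background-subtracted but still on the scale of each array. A table of quantile normalized log2 values that the authors deposited served as an alternative. Here processed intensities of 43118 non-control spots were put on the log2 scale. Spots marked as outliers, 232 to 301 per array, were left out, arrays were quantile normalized and the spots of a probe averaged. For probes printed 10 times, over 50% of the spots had to be well above background. R 4.3.3 with limma 3.58.1 (lmFit, eBayes, no block, 4.14 total degrees of freedom) was fitted on 22638 tested probes (66.3%), with two-sided p-values and Benjamini-Hochberg adjustment over all of them. The number of arrays limits the precision.

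The labels assign each array to experiment 1 or 2, and the departures from the treatment mean of same-numbered arrays correlated across probes (0.271), so the number was used as a block in an alternative fit. Gene names were checked by accession against RefSeq (GRCh38.p14, names only), which matched 113 of the 117 probes. Alternatives were 75th percentile scaling, normexp with an offset of 50, a stricter filter on dim probes or none, an intensity trend, a plain equal-variance t-test of each averaged probe (the methods' t-test, which the study ran over identical replicate probes and which is not repeated in that form here), the replicate block, the deposited table, marked spots kept and each array left out. The members, roles and gene lists were chosen with earlier results of these data known. Every gene was named. Full statistics were given for probes past the threshold, for IL1B and for the 3 largest differences in each direction that went the same way in both experiments, with the probe well above background on all arrays. They were also given for probes called with the block and for the first IL32 probe, chosen after values were seen. Otherwise the brightest of several probes was described first. A list of B cell markers is not reported here.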

Additional observations from a re-analysis of the deposited data

How the results depend on the processing

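The slide as a block was not run, since all arrays came from 1 slide. The counts of interleukin probes past the unadjusted threshold are given with the share of all tested probes in the same setting in brackets. The reported fit gave 1 of 65 (2.20%). It was 0 of 65 with 75th percentile scaling (2.11%), normexp background correction (1.17%) and an intensity trend in limma (1.26%). Without the filter on dim probes it was 5 of 117 (3.02%), and with the replicate block 6 of 65 (3.95%). A plain t-test of the averaged probes, which is not the form the study used, gave 2 of 65, IL12RB2 and IL6ST (3.13%). Of the 5 without the filter, IL1F8, IL28RA, IL31 and IL5 were dark on every array. Leaving out miR-511 mimic replicate 1 gave 4, control mimic replicate 1 gave 6, miR-511 mimic replicate 2 gave 7 and control mimic replicate 2 gave 3. Over all tested probes the count of 498 became 265 with normexp, 285 with the trend, 894 with the block, 708 by the plain t-test and 1029 without the filter. It lay between 709 (without control mimic replicate 2) and 1440 (without miR-511 mimic replicate 2) with each array left out. After Benjamini-Hochberg adjustment 0 probes passed in any setting, the plain t-test included. The median log2FC of the interleukin probes kept its sign throughout, between 0.01 and 0.05. Among the 11 probes with full statistics, signs turned in 3 of the settings: IL15RA to -0.031 (without control mimic replicate 1, with 0.80 as the highest value when leaving out an array), and IL2RB to 0.010 without miR-511 mimic replicate 1 and 0.019 without control mimic replicate 2, its lowest being -0.68. The causes were not tested. Signal near background limits what the dim probes can show.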
